A study of Arabidopsis thaliana with 18 samples.

Results

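The Sm core protein genes of Arabidopsis thaliana encode the proteins of the ring that sits on spliceosomal RNAs, and 10 of the 27655 genes in the deposited expression table are described here. They are SmD1a (AT3G07590), SmD1b (AT4G02840), SmD2a (AT2G47640), SmD2b (AT3G62840), SmD3a (AT1G76300), SmD3b (AT1G20580), SmE-a (AT2G18740), SmE-b (AT4G30330), SmF (AT4G30220) and SmG (AT2G23930). They were chosen by locus, and the choice used measured values, because as a family they were lower at the warm temperature in wild-type seedlings. The wild-type warmth contrast of these genes is therefore a description and carries no test. The RefSeq products of all 10 loci name small nuclear ribonucleoproteins or a core protein of them, and all 10 passed the filter on low values, with at least 1 TPM in all 18 libraries.

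Total RNA of whole 7-day-old seedlings grown in short days was sequenced in 18 libraries, 3 for each of 6 groups. The groups were h3.3kd at 27 and at 21 °C, elf7-3 at 27 and at 21 °C, and the wild type Col at 27 and at 21 °C. The h3.3kd line, labelled h3.3kd-1, is a knock-down of the replacement histone H3.3. The elf7-3 line carries a mutation in ELF7, which belongs to the Paf1 complex that travels with RNA polymerase II. Nothing in the labels shows that the 3 libraries of a group came from separately grown seedlings. The p-values therefore reflect the spread among libraries, and that spread could be technical. In whole seedlings, fewer cells of a type and less RNA per cell cannot be told apart.

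In all eukaryotes, Sm proteins assemble as a ring around a short site of the U1, U2, U4 and U5 small nuclear RNAs and remain there through splicing. The ring is put together from sub-complexes of SmD1 with SmD2, of SmE with SmF and SmG, and of SmD3 with SmB. A related ring of LSm proteins sits on the U6 RNA, and another LSm ring takes part in the decay of messenger RNA in the cytoplasm. Several Arabidopsis Sm proteins are encoded by paired genes, and mutants of single genes have specific defects. SmE-a is also known as PORCUPINE or SME1, and its loss makes development sensitive to low temperature. SmD1b was found in a search for plants defective in gene silencing, and loss of SmD3b alters growth and flowering.

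The stretch of 120 bases upstream of the annotated gene start is shown for 6 members, to set genes that share a short repeated motif beside genes that lack it. Capitals mark TGGGCC and TGGGCT on either strand, so that GGCCCA and AGCCCA are the same motifs read in reverse, and TGGGCCCA holds TGGGCC on both strands. These motifs are known as site II elements from the promoters of plant growth genes, among them those of ribosomal proteins. The sequences are from the RefSeq genome TAIR10.1 and are written 5′ to 3′ on the strand of the gene, at chr3:2422931-2423050 (plus strand) for SmD1a, chr1:7128747-7128866 (plus) for SmD3b, chr2:8123075-8123194 (plus) for SmE-a, chr2:10182131-10182250 (plus) for SmG, chr4:1264398-1264517 (plus) for SmD1b and chr4:14804462-14804581 (minus) for SmF.
SmD1a: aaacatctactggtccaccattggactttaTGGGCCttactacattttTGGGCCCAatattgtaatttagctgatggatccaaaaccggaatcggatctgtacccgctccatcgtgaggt
SmD3b: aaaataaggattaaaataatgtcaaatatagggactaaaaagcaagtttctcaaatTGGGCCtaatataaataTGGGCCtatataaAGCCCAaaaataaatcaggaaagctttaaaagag
SmE-a: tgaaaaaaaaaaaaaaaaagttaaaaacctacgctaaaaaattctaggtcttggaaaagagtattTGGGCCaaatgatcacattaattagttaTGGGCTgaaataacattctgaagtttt
SmG: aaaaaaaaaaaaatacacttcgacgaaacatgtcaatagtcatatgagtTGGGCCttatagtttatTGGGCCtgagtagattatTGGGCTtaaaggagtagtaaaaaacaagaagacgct
SmD1b: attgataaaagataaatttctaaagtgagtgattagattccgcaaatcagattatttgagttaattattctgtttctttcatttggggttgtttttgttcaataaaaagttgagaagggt
SmF: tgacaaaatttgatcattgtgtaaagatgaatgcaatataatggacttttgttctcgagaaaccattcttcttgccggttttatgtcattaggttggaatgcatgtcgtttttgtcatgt

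In windows from 250 bases before to 50 bases after the gene start, TGGGCC occurred on either strand in 7 of the 10 members, all but SmD1b, SmE-b and SmF. The same motif was held by 15.5% of 27443 windows of all genes and by 18.6% of the 19919 windows of tested genes. TGGGCT occurred in 5 members, against 14.2% of all windows. In SmG, forward TGGGCC began at -71 and -54 and forward TGGGCT at -36, counted from the gene start. In SmD3b, forward TGGGCC began at -64 and -47. In SmD1a, forward TGGGCC began at -90 and -72, and the reverse copy that overlaps the second began at -70. The telo-box AAACCCTA was found in 1 member, SmG, against 6.22% of windows, and TATAAA in 3 members, against 52.1%. Of the 11 LSm genes, 2 held TGGGCC. SmD1a and SmD1b, which encode the same subunit, thus differed in these letters, and a match or its absence is a description of the window only.

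The targeted genes followed the labels. The H3.3 gene HTR4 had means of 54.2 TPM (27 °C) and 44.7 TPM (21 °C) in h3.3kd, against 338 and 427 TPM in Col, and the H3.3 gene HTR8 had 17.4 and 18.8 TPM in h3.3kd, against 190 and 343 TPM in Col. The H3.3 gene HTR5 had 265 and 270 TPM in h3.3kd, against 447 and 601 TPM in Col. ELF7 had 13.1 TPM (27 °C) and 9.04 TPM (21 °C) in elf7-3, against 40.7 and 29.2 TPM in Col. Between 18563 and 19225 genes reached 1 TPM in a library. Chloroplast and mitochondrial genes took 3.66% of the TPM of h3.3kd 27 °C replicate 1 and 0.128% to 0.343% in the other 17 libraries. TPM values are scaled to a fixed sum and keep no record of depth, so the depth behind each value is unknown.

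The 10 genes together gave 379, 383 and 383 TPM in h3.3kd at 27 °C, against 443, 464 and 437 TPM in h3.3kd at 21 °C. They gave 366, 379 and 382 TPM in elf7-3 at 27 °C, against 495, 468 and 466 TPM in elf7-3 at 21 °C. The Col libraries gave 289, 285 and 278 TPM at 27 °C and 451, 429 and 469 TPM at 21 °C. Within each genotype the ranges of the 2 temperatures did not overlap. The summed level was 14.9% lower at 27 than at 21 °C in h3.3kd, 21.2% lower in elf7-3 and 36.9% lower in Col. At 21 °C the ranges of h3.3kd and Col overlapped, whereas at 27 °C every library of both mutants lay above every Col library. The choice of genes favoured low Col values at 27 °C. The larger fall in Col and the gap to the mutants at 27 °C are therefore descriptions, and they cannot decide whether the mutants respond less.

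Levels per unit of transcript length differed widely between members. In Col at 21 °C SmD2b averaged 106 ± 16.1 TPM and SmG 91.8 ± 1.03 TPM (mean ± SD, n = 3 libraries here and for each mean that follows). The 2 genes could not be ranked there, because the SmD2b libraries at 89.1, 106 and 121 TPM spanned those of SmG. SmD3b at 49.8 ± 1.92 TPM, SmD3a at 41.9 ± 2.33 TPM and SmE-a at 40.2 ± 3.63 TPM followed, and SmD3a and SmE-a overlapped. SmF at 34.5 ± 2.24 TPM, SmD2a at 30.3 ± 1.23 TPM and SmD1b at 29.2 ± 1.69 TPM formed the next step, and SmD2a and SmD1b overlapped. SmE-b at 14.2 ± 0.610 TPM and SmD1a at 12.4 ± 1.258 TPM had the lowest levels of the 10. The plot of levels by library shows every value.

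**Figure D1:**
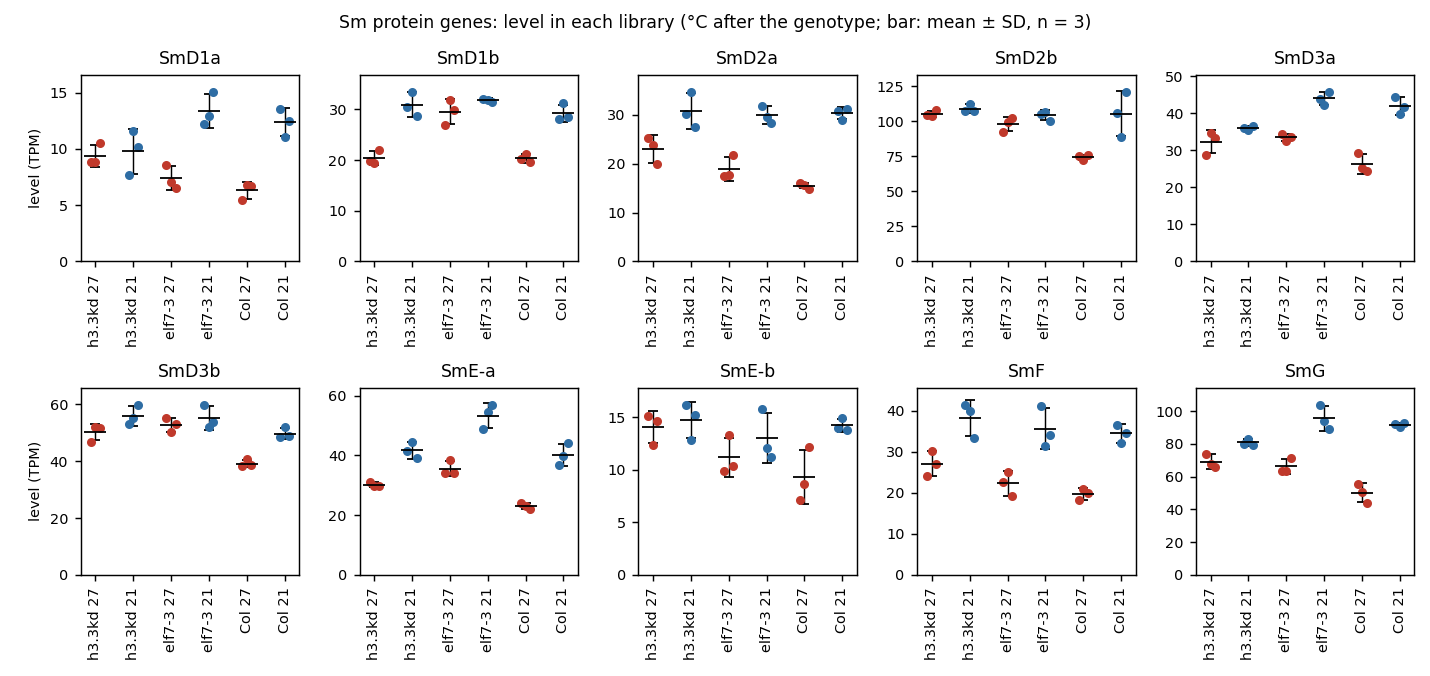
Level of each of the 10 Sm protein genes in TPM (vertical axes, starting at 0) in each library, grouped by genotype and temperature in °C. Points are libraries, red at 27 °C and blue at 21 °C, and black bars are mean ± SD of 3 libraries. SmD1a stood at 8.82 to 10.5 TPM in h3.3kd at 27 °C, beside 5.44 to 6.78 TPM in Col at 27 °C.

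In Col, the contrast that chose the genes, log2 fold changes of 27 over 21 °C on the scale of log2(TPM + 1) ran from -0.92 for SmD2a to -0.34 for SmD3b, with a median of -0.72. The median over all 20048 genes tested was 0.08, and 22.1% of them were called lower. For none of the 10 members did the Col libraries of the 2 temperatures overlap, and 25.0% of all genes were lower in Col without overlap. Other Sm genes that the rule left out were closer to 0 in Col. SmG-b was at -0.27, SmB-b at -0.17 and SmB-a at -0.09, so SmG-b stood just outside the range of the members and SmD3b just inside it.

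The same warmth response was tested in each mutant, in libraries the choice of genes had not used. In h3.3kd, 5 of the 10 members fell at 27 °C by the limma test with an adjusted p under 0.05, and 19.7% of all genes were called lower. These were SmD1b, SmD2a, SmE-a, SmF and SmG. In elf7-3, 6 members fell, against 18.3% of all genes. These were SmD1a, SmD2a, SmD3a, SmE-a, SmF and SmG. Libraries of the 2 temperatures did not overlap for 7 members in h3.3kd, against 22.9% of all genes lower without overlap, and for 6 members in elf7-3, against 21.3%. All 10 log2 fold changes were below 0 in each mutant, with a median of -0.19 in h3.3kd, against 0.04 over all genes, and of -0.45 in elf7-3, against 0.07 over all genes. SmD2a, SmE-a, SmF and SmG were the 4 members called in both mutants, and SmD2b, SmD3b and SmE-b were called in neither.

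The SmD1 genes, whose protein joins SmD2 in the first step of ring assembly, were the members whose warmth response was called different between the mutants. SmD1a had 8.84, 8.82 and 10.5 TPM in h3.3kd at 27 °C, against 7.65, 11.6 and 10.2 TPM in h3.3kd at 21 °C. The h3.3kd groups overlapped, and the log2 fold change was -0.04 ± 0.14 (SE, adjusted p = 0.819). In elf7-3, SmD1a had 8.58, 7.03 and 6.56 TPM at 27 °C, against 12.2, 12.9 and 15.1 TPM at 21 °C. The elf7-3 libraries at 27 °C were all lower, and SmD1a fell by 0.78 ± 0.14 (SE) on the log2 scale with adjusted p = 1.51e-04. In Col it had 5.44, 6.78 and 6.72 TPM at 27 °C and 13.6, 11.1 and 12.5 TPM at 21 °C, a log2 fold change of -0.87.

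SmD1b showed the opposite order of the mutants. It had 19.8, 19.5 and 22.0 TPM in h3.3kd at 27 °C, against 30.5, 33.5 and 28.6 TPM in h3.3kd at 21 °C. The groups did not overlap, and SmD1b fell by 0.57 ± 0.07 (SE) with adjusted p = 6.36e-06. In elf7-3 it had 27.0, 31.8 and 29.8 TPM at 27 °C, against 32.1, 31.9 and 31.4 TPM at 21 °C. The lowest elf7-3 library was at 27 °C and the groups overlapped narrowly, with a log2 fold change of -0.10 ± 0.07 (SE, adjusted p = 0.261). That value reached adjusted p = 0.0444 under another scaling, by median-of-ratios factors. In Col the log2 fold change of SmD1b was -0.50, with 20.3 ± 0.831 TPM at 27 °C and 29.2 ± 1.69 TPM at 21 °C.

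The difference between the warmth responses of the mutants was itself tested as an interaction, h3.3kd minus elf7-3. It was 0.74 ± 0.20 (SE) on the log2 scale for SmD1a with adjusted p = 0.0197, and -0.47 ± 0.11 (SE) for SmD1b with adjusted p = 0.00722. These were the only members called, 1 in each direction, with 4.80% of all genes called higher and 7.01% called lower, so the count of members is near the share of all genes. The SmD1a call was lost without h3.3kd 21 °C replicate 1 (0.59, adjusted p = 0.0550) or without elf7-3 21 °C replicate 3 (0.66, adjusted p = 0.0544). The SmD1b call held in all 12 fits that left out 1 library of the compared groups. For SmG the interaction was 0.30 ± 0.11 (SE, adjusted p = 0.0797), and the other 7 members lay between -0.09 and 0.23.

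The summed level of the SmD1 pair was 26.7% lower at 27 than at 21 °C in h3.3kd, 18.2% lower in elf7-3 and 36.0% lower in Col. In h3.3kd the share of SmD1a in the pair was 31.5 ± 0.736% at 27 °C, against 24.0 ± 3.43% at 21 °C, and no library overlapped. In elf7-3 it was 20.1 ± 3.50% at 27 °C, against 29.6 ± 2.57% at 21 °C, again without overlap and in the opposite direction. Each comparison gave p = 0.1 by a two-sided exact permutation test, the smallest that 3 against 3 libraries allow, and 0.133 after adjustment over the 8 share tests made. In Col the share was 23.7 ± 2.24% at 27 °C and 29.8 ± 3.25% at 21 °C.

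SmD2 genes differed in level, and SmD2a alone of the pair was called in the mutants. SmD2a had 25.3, 23.8 and 19.9 TPM in h3.3kd at 27 °C, against 30.1, 34.8 and 27.5 TPM at 21 °C, and fell by 0.41 ± 0.10 (SE) with adjusted p = 0.00264. In elf7-3 it had 17.5, 17.6 and 21.8 TPM at 27 °C, against 31.9, 29.7 and 28.2 TPM at 21 °C, and fell by 0.64 ± 0.10 (SE) with adjusted p = 4.43e-05. In neither mutant did the temperatures overlap. Its more abundant paralogue SmD2b had 105, 104 and 108 TPM in h3.3kd at 27 °C, against 107, 113 and 107 TPM at 21 °C, with a log2 fold change of -0.05 ± 0.08 (SE, adjusted p = 0.634). In elf7-3 SmD2b averaged 98.0 ± 5.11 TPM at 27 °C and 104 ± 3.47 TPM at 21 °C, with -0.09 ± 0.08 (SE, adjusted p = 0.336). In Col SmD2b averaged 74.5 ± 1.90 TPM at 27 °C and 106 ± 16.1 TPM at 21 °C. Every Col library at 27 °C lay below every library of both mutants, a gap that the choice of genes favoured. The share of SmD2a in its h3.3kd pair was 17.9% at 27 °C, against 22.0% at 21 °C, and in elf7-3 it was 16.2%, against 22.3%. In neither mutant did the shares of the temperatures overlap. Each comparison gave p = 0.1 by the exact permutation test and 0.133 after adjustment. That is the smallest p that 3 against 3 libraries allow, so the test could not decide whether the response differed within the pair.

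Of the SmD3 genes, partners of SmB, SmD3a was called in elf7-3 alone and SmD3b in neither mutant in the main fit. SmD3a had 28.8, 34.8 and 33.3 TPM in h3.3kd at 27 °C, against 35.9, 35.4 and 36.5 TPM at 21 °C. The h3.3kd groups did not overlap, yet the log2 fold change of -0.16 ± 0.07 (SE) gave adjusted p = 0.0957, and it was called without h3.3kd 27 °C replicate 2 (adjusted p = 0.0444) or with the other scaling (0.0308). In elf7-3 SmD3a averaged 33.5 ± 0.960 TPM at 27 °C and 44.0 ± 1.80 TPM at 21 °C and fell by 0.38 ± 0.07 (SE) with adjusted p = 3.47e-04. SmD3b was -0.15 ± 0.06 (SE, adjusted p = 0.0603) in h3.3kd, called without h3.3kd 21 °C replicate 1 (0.0427) or with the other scaling (0.0231), and -0.06 ± 0.06 (SE, adjusted p = 0.456) in elf7-3. The share of SmD3a in the pair was 38.8% at 27 °C and 44.4% at 21 °C in elf7-3, without overlap (exact permutation p = 0.1, the smallest possible, and 0.133 after adjustment). In h3.3kd it was 39.1% at both temperatures (exact permutation p = 1).

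The SmE, SmF and SmG genes encode the other sub-complex, and the main gene of each fell in both mutants. SmE-a had 31.0, 29.9 and 29.9 TPM in h3.3kd at 27 °C, against 41.4, 44.5 and 39.1 TPM at 21 °C, and fell by 0.45 ± 0.08 (SE) with adjusted p = 1.06e-04. In elf7-3 SmE-a had 34.3, 38.6 and 34.0 TPM at 27 °C, against 48.7, 54.4 and 56.9 TPM at 21 °C, and fell by 0.57 ± 0.08 (SE) with adjusted p = 7.94e-06. The temperatures did not overlap in either mutant, and SmE-a stood higher in elf7-3 than in Col at both of them, with Col at 24.0, 22.9 and 21.9 TPM at 27 °C and 36.9, 39.7 and 44.1 TPM at 21 °C. The less abundant SmE-b in h3.3kd averaged 14.0 ± 1.50 TPM at 27 °C, against 14.7 ± 1.73 TPM at 21 °C, and in elf7-3 it averaged 11.2 ± 1.86 TPM, against 13.0 ± 2.39 TPM. Its log2 fold changes of -0.06 and -0.20 had adjusted p = 0.771 and 0.315, with an SE of 0.16, the widest of the 10 members.

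SmF, represented here by 1 gene, had 24.1, 30.1 and 27.1 TPM in h3.3kd at 27 °C, against 41.4, 39.9 and 33.2 TPM at 21 °C. In elf7-3 it had 22.6, 25.1 and 19.1 TPM at 27 °C, against 41.1, 31.5 and 34.2 TPM at 21 °C. No 27 °C library of SmF reached a 21 °C library of its genotype. SmF fell by 0.48 ± 0.11 (SE, adjusted p = 0.00210) in h3.3kd and by 0.65 ± 0.11 (SE, adjusted p = 1.28e-04) in elf7-3. SmG had 74.0, 68.0 and 65.7 TPM in h3.3kd at 27 °C, against 80.0, 83.3 and 79.4 TPM at 21 °C. It had 63.7, 63.7 and 71.4 TPM in elf7-3 at 27 °C, against 104, 94.2 and 88.8 TPM at 21 °C. The groups of SmG did not overlap in either mutant. SmG fell by 0.52 ± 0.08 (SE, adjusted p = 1.96e-05) in elf7-3 and by 0.22 ± 0.08 (SE, adjusted p = 0.0216) in h3.3kd. The h3.3kd call of SmG was lost without 21 °C replicate 2, 27 °C replicate 2 or 27 °C replicate 3 of that line, with adjusted p between 0.0589 and 0.0874.

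**Figure D2:**
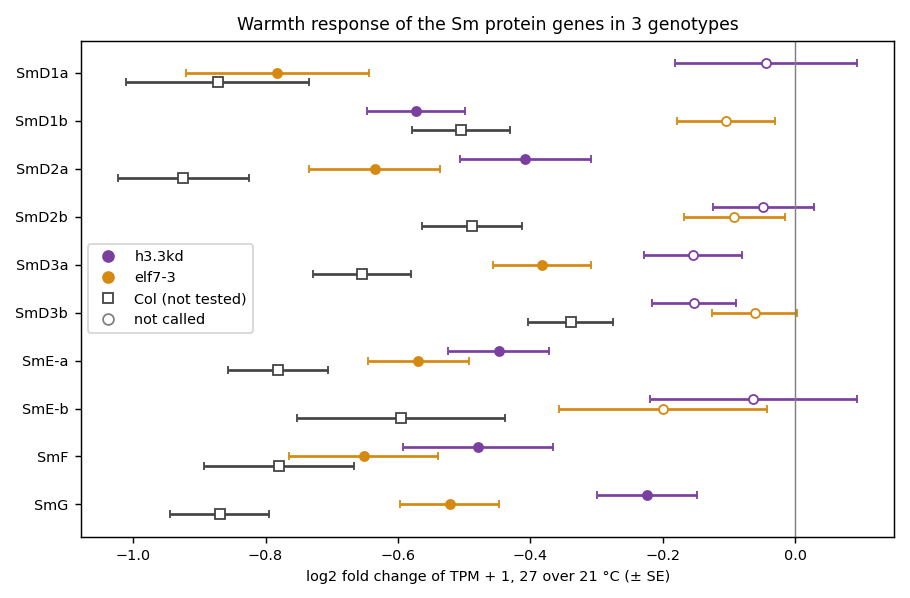
Log2 fold change of TPM + 1 at 27 over 21 °C (horizontal axis, ± SE of the limma fit) for each Sm protein gene (vertical axis) in h3.3kd, elf7-3 and Col. Filled circles were called at an adjusted p under 0.05, open circles were not, and open squares mark the untested Col values; SmD1a was at -0.04 in h3.3kd and -0.78 in elf7-3, SmD1b at -0.57 and -0.10.

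**Figure D3:**
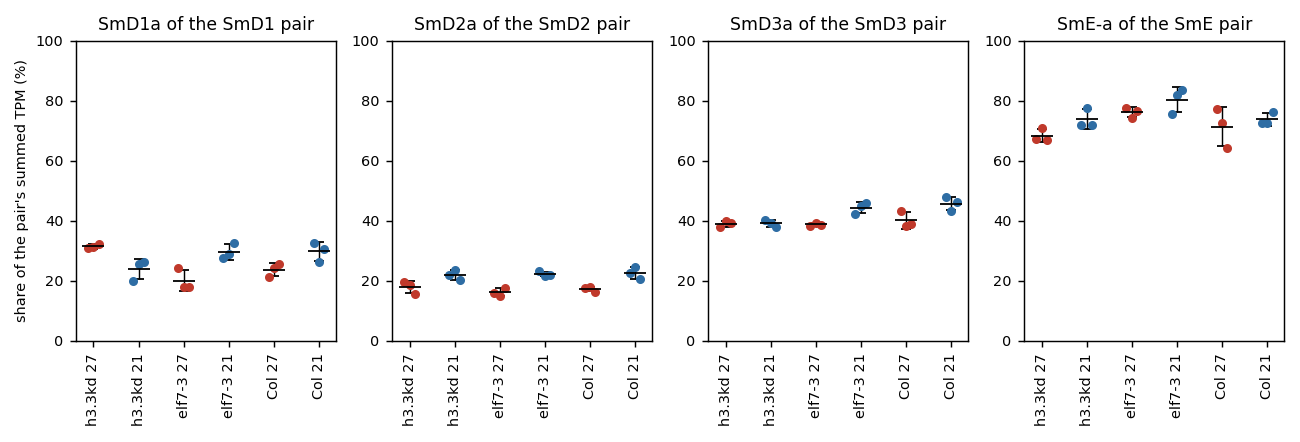
Share of the first gene in the summed TPM of each Sm gene pair (vertical axis, percent, 0 to 100) in each library, red at 27 °C and blue at 21 °C, with black bars for mean ± SD of 3 libraries. The SmD1a share was higher at 27 than at 21 °C in h3.3kd (31.5% and 24.0%) and lower in elf7-3 (20.1% and 29.6%).

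The mutants were also compared with each other directly. At 21 °C, 4 members were lower in h3.3kd than in elf7-3, against 25.9% of all genes called lower. Most root markers were lower in h3.3kd in the same comparison, 13 of 16, with a median of -0.80, and their part was not tested. The 4 members were SmD1a (-0.43, adjusted p = 0.0179), SmE-a (-0.35, adjusted p = 0.00117), SmD3a (-0.28, adjusted p = 0.00455) and SmG (-0.24, adjusted p = 0.0166). The SmD1a value lost its call without h3.3kd 21 °C replicate 1 or elf7-3 21 °C replicate 3, at -0.27 and -0.34, and the SmG value without h3.3kd 21 °C replicate 3 or elf7-3 21 °C replicate 1, at -0.22 and -0.18, or with median-of-ratios scaling, at -0.19. At 27 °C, SmD1b (-0.51, adjusted p = 1.58e-05) and SmE-a (-0.23, adjusted p = 0.0179) were lower in h3.3kd, against 31.6% of all genes. SmD2a (0.26, adjusted p = 0.0332) and SmF (0.27, adjusted p = 0.04999) were called higher in h3.3kd by limma, against 21.6% of all genes. The count of members is near that share, and for both genes the libraries of the mutants overlapped. The number of members called higher ran from 0 to 2 when 1 library was left out. SmD2a lost its call without replicate 1 or 2 of either 27 °C group (0.19 to 0.24), and SmF without h3.3kd replicate 2 or 3 or elf7-3 replicate 1 or 3 (0.17 to 0.29). SmD1a was called without elf7-3 27 °C replicate 1, at 0.41, or with median-of-ratios scaling, at 0.38, and SmE-b without elf7-3 27 °C replicate 2, at 0.43. SmE-a was thus the member called lower in h3.3kd than in elf7-3 at both temperatures, although its call at 27 °C was lost without elf7-3 27 °C replicate 2, at -0.17, or with median-of-ratios scaling, at -0.15.

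Set against Col, the levels were compared as the mean difference over both temperatures. This contrast contains the Col libraries that chose the genes, and the choice favoured genes that were low in Col at the warm temperature. The calls, the adjusted p and the comparison with all genes are therefore not independent of the choice. They are given as a description and cannot decide whether the family is higher in the mutants. By the limma test, 7 members were higher in h3.3kd than in Col, against 21.3% of all genes called higher, and 6 members were higher in elf7-3 than in Col, against 21.2% of all genes. All 10 members lay above 0 in both mutants. In h3.3kd, SmF (0.29), SmD2b (0.28), SmD2a (0.28), SmD3b (0.26), SmE-a (0.22), SmE-b (0.31) and SmG (0.14) were called. In elf7-3, SmE-a (0.51), SmD1b (0.32), SmD3b (0.28), SmG (0.23), SmD3a (0.20) and SmD2b (0.19) were called. SmE-a in elf7-3 was the largest of these, with an SE of 0.05 and adjusted p = 8.65e-07. The median of the 10 was 0.24 in h3.3kd, against -0.06 over all genes, and 0.20 in elf7-3, against -0.01 over all genes.

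Of the 7 calls in h3.3kd, 2 were lost when single libraries were left out. SmE-b lost its call, with values between 0.23 and 0.30, when any of Col 21 °C replicate 3, Col 27 °C replicates 1 and 2, h3.3kd 21 °C replicates 1 and 3, or h3.3kd 27 °C replicates 1 and 3 was left out. SmG lost it, with values between 0.10 and 0.14, without Col 21 °C replicate 2, Col 27 °C replicate 3, h3.3kd 21 °C replicate 2 or h3.3kd 27 °C replicate 1. The last of these is the library with the high organelle share, and without it 5 members were called higher in h3.3kd than in Col and still 5 were called lower at 27 than at 21 °C.

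The differences from Col lay mostly at 27 °C. These values contain the Col libraries that chose the genes and carry no test. At 27 °C the median difference was 0.45 in h3.3kd and 0.37 in elf7-3, whereas at 21 °C it was 0.05 in h3.3kd and 0.06 in elf7-3. At 27 °C, 8 members in h3.3kd and 7 in elf7-3 were higher than Col without overlap of libraries, and so were 22.7% and 21.3% of all genes. The libraries overlapped with Col at 27 °C for SmD1b (0.01) and SmD3a (0.28) in h3.3kd, and for SmD1a (0.20), SmE-b (0.26) and SmF (0.17) in elf7-3. At 21 °C, SmD3a (-0.22) and SmG (-0.18) were below Col and SmD3b (0.17) above it in h3.3kd without overlap, while SmD1a (-0.32) overlapped. In elf7-3 at 21 °C, SmE-a (0.40), SmD3b (0.15) and SmD1b (0.12) were above Col without overlap. The share of all genes without overlap was not computed at 21 °C, so these members cannot be set against it. Of all 20048 genes, limma called 2556 higher and 4169 lower than Col in h3.3kd at 21 °C. In elf7-3 at 21 °C it called 2660 higher and 3091 lower.

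Other genes of the pathway were taken from lists by known function, chosen with earlier results of these data known. The LSm genes, whose ring sits on U6 or on decaying messenger RNA, fell in part: 7 of 11 fell at 27 °C in h3.3kd and 8 of 11 in elf7-3, against 19.7% and 18.3% of all genes, none rose, and the medians were -0.31 and -0.32. LSM6A fell by 0.85 ± 0.12 (SE, adjusted p = 1.51e-05) in h3.3kd and by 0.60 ± 0.12 (SE, adjusted p = 4.28e-04) in elf7-3. LSM6B fell by 0.57 in h3.3kd and 0.66 in elf7-3, LSM5 by 0.36 and 0.57, and LSM7, called in h3.3kd alone, by 0.41. LSM1B, a subunit of the cytoplasmic ring, was called in elf7-3 alone, at -0.50. LSM3A was at 0.15 in h3.3kd and 0.02 in elf7-3 and was not called in either. In the interaction between the mutants none of the 11 LSm genes was called by limma, and 2 had an unadjusted p under 0.05, 1 in each direction.

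The partners that complete the Sm ring behaved less evenly. SmB, which pairs with SmD3, had summed levels in h3.3kd of 79.8 ± 2.62 TPM at 27 °C, against 79.5 ± 3.10 TPM at 21 °C. In elf7-3 they were 109 ± 3.89 TPM, against 107 ± 5.53 TPM, and in Col 74.7 ± 1.49 TPM, against 83.4 ± 0.727 TPM. SmB-a, the minor gene, rose by 0.32 ± 0.12 (SE, adjusted p = 0.0280) in elf7-3, a call lost with median-of-ratios scaling (0.25, adjusted p = 0.0667), and was at -0.10 in h3.3kd, not called. SmB-b was not called in either warmth comparison and was higher in elf7-3 than in Col over both temperatures, by 0.50 ± 0.03 (SE, adjusted p = 6.30e-09). SmG-b fell by 0.23 in h3.3kd (adjusted p = 0.0140) and by 0.27 in elf7-3 (adjusted p = 0.00406). Of the genes for assembly and arginine methylation of Sm proteins, ICLN, the chaperone that holds Sm proteins before assembly, fell by 0.34 in h3.3kd and 0.24 in elf7-3. PRMT5, the methyltransferase, fell by 0.28 in h3.3kd and was at 0.09 in elf7-3, not called, and its interaction of -0.37 was called. GEMIN2, a splicing assembly factor of the survival of motor neuron complex in animals, rose by 0.27 in h3.3kd and 0.30 in elf7-3.

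Among snRNP proteins with associated splicing factors, and among SR splicing regulators, more genes rose than fell, as was so for all genes. The list called snRNP-specific here also holds U2AF35A, U2AF35B, U2AF65A, U2AF65B and SF1, splicing factors that are not proteins of a single snRNP. Of 18 snRNP-specific genes, 8 rose and 2 fell at 27 °C in h3.3kd, and 12 rose and 1 fell in elf7-3, with medians of 0.08 and 0.27. Over all genes, 26.1% rose and 19.7% fell in h3.3kd, and 29.8% rose and 18.3% fell in elf7-3. With median-of-ratios scaling 7 rose and 4 fell in h3.3kd, and 12 rose and 3 fell in elf7-3. U2AF65A and U2AF65B, which bind the polypyrimidine tract, rose by 0.52 and 0.52 in h3.3kd and by 0.50 and 0.40 in elf7-3. SF1, the branch point protein, rose by 0.50 in each mutant. PRP4, a protein of the U4/U6 particle, rose by 0.52 in elf7-3 and was at -0.002 in h3.3kd, not called. U2B-like fell by 0.54 in h3.3kd and by 0.54 in elf7-3. Of 19 SR genes, 6 rose and 2 fell in h3.3kd, and 10 rose and 2 fell in elf7-3, so the count that rose in h3.3kd is near the share of all genes. With median-of-ratios scaling 6 rose and 3 fell in h3.3kd, and 8 rose and 3 fell in elf7-3. SCL33 rose by 1.24 in h3.3kd and 0.89 in elf7-3, RS31A by 0.91 and 1.31, and RSZ33 by 0.97 and 0.96. SCL28 rose by 0.71 in elf7-3 and was at 0.45 in h3.3kd, not called. The plot by list sets these beside the Sm genes. For the LSm, snRNP-specific and SR lists the Col medians were -0.59, 0.15 and 0.06, and that of the SR list turned to -0.02 with median-of-ratios scaling.

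**Figure D4:**
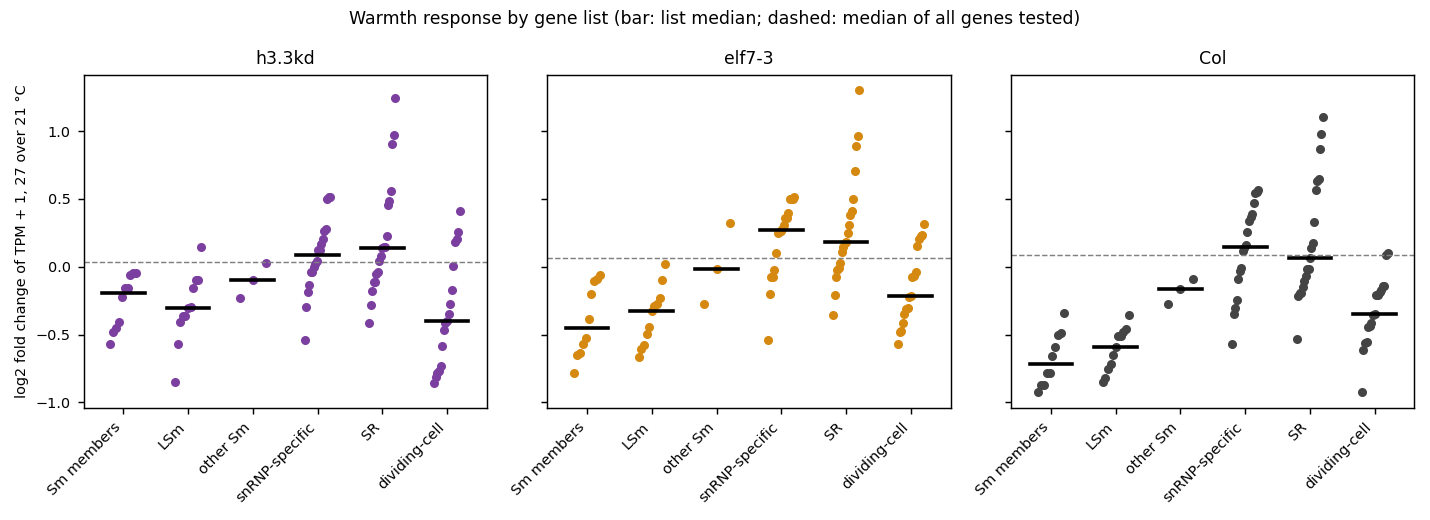
Log2 fold change of TPM + 1 at 27 over 21 °C (vertical axis) for each gene of 6 lists in h3.3kd, elf7-3 and Col. Points are genes in rising order, black bars are list medians and the dashed line is the median of all genes tested; the Sm and LSm lists have medians below 0 in all 3 genotypes and the snRNP-specific and SR lists above 0, except that the SR median in Col is -0.02 with median-of-ratios scaling.

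Over the 18 libraries, the mean of the members' standardised log2(TPM + 1) profiles was set against every other gene with a mean of at least 5 TPM, 15663 in all. The 6 genes with the highest Pearson r were AT1G67430 (0.982), AT4G14320 (0.981), PFL (0.981), PGY1 (0.980), UBQ6 (0.980) and AT3G52580 (0.978). The annotated products of 5 of the 6 name ribosomal proteins, and that of UBQ6 reads ubiquitin 6. Of the nearest 40 genes, a number chosen after the first 6 were seen, 32 have a product named as ribosomal. Both counts go by the product name alone and can miss ribosomal proteins annotated under another name, such as ubiquitin fusions. The mean profile of the LSm list had r = 0.972 with that of the Sm genes, the dividing-cell markers 0.568, the SR list -0.313 and the snRNP-specific list -0.395. All these values come from the same 18 libraries in 6 groups and share their temperature contrast, so they describe likeness only.

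Members varied in how closely they followed the others. SmG had the highest r with the mean profile of the other 9, at 0.936, followed by SmD2a at 0.906 and SmE-a at 0.899. SmE-b was lowest at 0.619 and SmD1b next at 0.722. Among the 45 pairs the median r was 0.717, the closest pair was SmD2a with SmG at 0.933 and the least alike was SmD1b with SmE-b at 0.350. SmD1a was at 0.801 and SmD3b at 0.780.

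Paired and overlapping genes limit how far single values can be read. Coding sequences were 78.4% identical in the SmD1 pair, 86.4% in SmD3, 88.0% in SmE and 89.4% in SmD2, with longest identical runs of 26, 50, 26 and 32 bases, so that reads could have been assigned to the wrong gene of a pair. In the RefSeq annotation SmD1a overlaps AT3G07600 on the opposite strand by 478 bases, and the table lists that gene at 0 to 0.578 TPM. SmD1a also overlaps AT3G02025, a long non-coding RNA gene on the same strand, by 241 bases. That gene has no values in the deposited data, so its level is unknown. SmD1b overlaps AT4G02850 by 24 bases; that gene ranged from 1.54 to 11.8 TPM and fell by 1.11 in h3.3kd and by 0.64 in elf7-3. SmD2a overlaps AT2G47650 by 212 bases, a gene at 39.9 to 64.5 TPM that fell by 0.27 in elf7-3 and was higher in h3.3kd than in Col by 0.31. SmD2b overlaps AT3G62830 by 78 bases, a gene at 49.0 to 75.3 TPM that fell by 0.30 in elf7-3. The strand setting of the counting is not given in the sources used here, and the part of the overlaps in the Sm values was not tested.

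Marker genes of cell and organ types were read beside the Sm genes, and none of the 41 markers was at 0 in any library. Of 17 dividing-cell markers, 10 fell and 1 rose at 27 °C in h3.3kd, 6 fell and 1 rose in elf7-3, and 9 fell in Col, with medians of -0.40, -0.22 and -0.35. Their summed level in h3.3kd was 210 to 236 TPM at 27 °C, against 243 to 265 TPM at 21 °C. In elf7-3 it was 273 to 304 TPM, against 279 to 323 TPM, and in Col 227 to 249 TPM, against 284 to 289 TPM. The medians of the Sm genes were -0.19 in h3.3kd and -0.45 in elf7-3. The difference between the lists was not tested. Relative to Col over both temperatures, 5 of the 17 dividing-cell markers were lower in h3.3kd, and 9 were higher and 1 lower in elf7-3. The Sm genes called against Col were all higher in both mutants, but that contrast contains the Col libraries that chose them. It is a description and cannot set the Sm genes apart from the markers. Of all 20048 genes, 4271 were called higher and 6867 lower in h3.3kd, and 4248 higher and 4656 lower in elf7-3. The count of dividing-cell markers lower in h3.3kd is thus near the share of all genes. Of the 16 root markers, 8 were lower and 1 higher than Col in h3.3kd (median -0.31), and 8 were higher and 1 lower in elf7-3 (0.33). Of the 8 shoot markers, 4 were higher and 2 lower than Col in h3.3kd (0.15), and 5 were lower and none higher in elf7-3 (-0.19). Between the mutants, 13 root markers were lower and 1 higher in h3.3kd than in elf7-3 at 21 °C (median -0.80), and 12 were lower at 27 °C (-0.77). Of the dividing-cell markers, 7 were lower in h3.3kd than in elf7-3 at 21 °C (-0.22), and 12 were lower and 1 higher at 27 °C (-0.44). The shoot markers had 4 higher in h3.3kd at 21 °C (0.31), and 5 higher and 1 lower at 27 °C (0.39). Of all 20048 genes, 3864 were called higher and 5194 lower in h3.3kd than in elf7-3 at 21 °C. At 27 °C these numbers were 4337 and 6338. In h3.3kd the root markers summed to between 1916 and 2420 TPM at 27 °C, against 1717 to 1958 TPM at 21 °C, and in elf7-3 to between 2428 and 2940 TPM, against 2108 to 2325 TPM. Shoot markers in h3.3kd summed to between 33140 and 35670 TPM at 27 °C, against 34190 to 37630 TPM at 21 °C, and in elf7-3 to between 22100 and 23910 TPM, against 24890 to 27840 TPM. Of the 16 root markers, 3 rose and 3 fell in h3.3kd and 2 rose and 2 fell in elf7-3, and of the 8 shoot markers, 2 rose in h3.3kd and 2 rose and 2 fell in elf7-3. In Col at 27 °C, 8 root markers rose and 1 fell, and 2 shoot markers rose and 4 fell. Of all 20048 genes, 5240 rose and 3952 fell at 27 °C in h3.3kd, 5972 rose and 3662 fell in elf7-3, and 6589 rose and 4432 fell in Col. The part of these markers in the Sm values was not tested.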

How the data were processed

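Expression was deposited by the authors as TPM, a length-scaled abundance in which each library sums to 1000000 over 27655 genes. Per the submitters' processing notes, fastp 0.20.1, HISAT2 2.1.10, HTSeq 0.11.2, DESeq2 1.26.0 and the build TAIR10 were used, with no roles given; how TPM, gene lengths and strand were handled is not given in the sources used here. Per the labels' protocols, total RNA entered a NEBNext Ultra library kit.

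All 18 columns matched 1 label each. The 20048 genes that reached 1 TPM in 3 or more libraries were tested. A limma model (version 3.58.1, R 4.3.3) of log2(TPM + 1) had 6 group means, a prior that follows the mean level, and 12 residual degrees of freedom; calls are at a two-sided Benjamini-Hochberg adjusted p under 0.05 over all genes of a comparison. Fold changes on this scale understate the change of low genes. Shares between paired genes were compared by exact permutation tests. The code for the fit was tested on simulated data. TPM keep no depth, so no counting interval was computed. Replicate numbers were checked for pairing. Tables and plots were made in Python 3.11.15 with numpy 2.4.6, pandas 2.3.3, scipy 1.17.1 and matplotlib 3.10.9.

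The members and the gene lists were chosen with earlier results of these data known. All 10 members and the targeted genes were named; in each pathway list, up to 4 called genes with the largest change in the mutants' warmth comparisons; and the 6 most alike other genes. LSM3A, LSM7, SmB-b, SF1 and the overlapping genes were added after their values were seen. Promoter windows were cut from the RefSeq genome TAIR10.1 at the annotated gene starts. Alternatives were median-of-ratios scaling, a pseudocount of 0.1, a filter at 5 TPM or none, removal of organelle genes, the replicate block, fits of the compared groups only, and leaving out each library in turn.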

Additional observations from a re-analysis of the deposited data

Results flagged for a closer look

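The warmth responses of the 2 mutants differed for both genes of the SmD1 pair, by a test of the difference itself in limma. For SmD1a the response of h3.3kd minus that of elf7-3 was 0.738 on the log2(TPM + 1) scale, with log2 fold changes of -0.04 in h3.3kd and -0.78 in elf7-3. For SmD1b the same difference was -0.468, with log2 fold changes of -0.57 in h3.3kd and -0.10 in elf7-3. These were 2 of the 10 members, 1 in each direction, and over all genes 4.80% were called higher and 7.01% lower in the same test, so the number of members called stands near that share. The SmD1a call was lost without h3.3kd 21 °C replicate 1 (0.59, adjusted p = 0.0550) or elf7-3 21 °C replicate 3 (0.66, adjusted p = 0.0544).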

How the results depend on the processing

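The counts of members called lower at 27 °C stayed near their values of 5 in h3.3kd and 6 in elf7-3 (4 to 6 and 6 when 1 library was left out, 7 and 7 with median-of-ratios scaling). Members called higher than Col numbered 5 to 7 in h3.3kd and 6 in elf7-3 under all alternatives. Each alternative still rests on Col libraries that chose the genes, so this stability cannot decide whether the members are higher. Between h3.3kd and elf7-3 at 27 °C, the 2 members called higher became 1 with a pseudocount of 0.1, 1 without a filter, 4 with median-of-ratios scaling, 0 with the compared groups only, and 0 to 2 when 1 library was left out; the 2 called lower became 1 with median-of-ratios scaling and 1 to 2 when 1 library was left out. The interaction called 1 member higher, or 0 to 1 when 1 library was left out. The cause was not tested.

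Replicate numbers did not pair the libraries (4 of 45 same-numbered pairs correlated above 0.1, from -0.154 to 0.168, and 4 of 18 libraries correlated best with their own number). With the replicate block the members called higher between the mutants at 27 °C became 1, and the other member counts did not change.

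Values near 0 that changed sign were not called. With median-of-ratios scaling, SmD3a was 0.015 and SmD3b 0.000 between the mutants at 27 °C. When 1 library was left out, the warmth response in h3.3kd ran from -0.196 to 0.076 for SmD1a and from -0.154 to 0.022 for SmE-b. Between the mutants at 21 °C, SmD1b ran from -0.102 to 0.009, SmD2a from -0.053 to 0.11 and SmD3b from -0.028 to 0.078, and at 27 °C SmD3a ran from -0.11 to 0.021. SmE-b in elf7-3 against Col ran from -0.012 to 0.162. Median-of-ratios scaling changed the genes called higher and lower from 5240 and 3952 to 4683 and 4636 for warmth in h3.3kd, from 5972 and 3662 to 4861 and 4747 in elf7-3, from 4337 and 6338 to 5414 and 5311 between the mutants at 27 °C, and from 4271 and 6867 to 5687 and 5327 for h3.3kd against Col. Depth is unknown, so small differences of low genes such as SmE-b may lie below what these libraries can show.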
